A study of Homo sapiens with 6 samples.

Results

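Imprinted genes are genes of which mainly the copy inherited from 1 parent is active. The 36 imprinted genes described here were selected by gene symbol. No measured value enters that rule, but the list was chosen with earlier results of these data known. They lie in 18 clusters. The count table held 30270 genes, and 27 of the 36 symbols had a row in it. The other 9 had no row and were not analysed here: MAGEL2, NDN, SNURF and SNRPN of the 15q11-q13 cluster, DLK1, RTL1 and MEG3 of the 14q32 cluster, and PEG3 and ZIM2 of the 19q13 cluster. The smallest sum of counts over the libraries in any row of the table was 10. Of the 27 genes with a row, 26 had a largest count above 12 and were tested, and MEG8 did not.

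Total RNA depleted of ribosomal RNA was sequenced from HEK 293T cells, an immortalized human embryonic kidney line, in 3 wild-type (WT) libraries and 3 libraries labelled as a knockout of both TENT3A and TENT3B. These genes are also called TUT4 and TUT7, the enzymes that add untemplated uridines to the 3′ ends of RNA, and the group is named ΔTUT4/7 after the study. All 6 libraries carried no treatment and came from cells grown in the same medium. The study obtained HEK 293T cells from the American Type Culture Collection. The knockout cells were made in another laboratory and given to the study, which does not say that its WT cells are their parent line. Each group is 1 cell line, so the source of the line and the genotype cannot be told apart. The tests measure the spread between cultures of 1 line and not between independent knockouts. Estimated counts summed to between 18757228 and 33148937 per library. Levels are given as CPM, counts per 1000000 of the library size after TMM scaling, with the mean ± SD over 3 libraries. TUT7 was at 62.6 ± 2.17 CPM in WT and 26.3 ± 1.04 CPM in the libraries labelled ΔTUT4/7, but TUT4 was at 211 ± 5.08 and 906 ± 21.4 CPM, against the direction of the label. The sources used here do not give the edited positions, so the directions below rest on the labels. All 4 markers of the line that were checked also differed between the groups by the same test. The kidney factor PAX2 was at 2.15 CPM in WT and 1.45 CPM in the libraries labelled ΔTUT4/7 (log2 -0.56), and the epithelial keratin KRT8 was at 9.96 and 3.43 CPM (-1.54), both lower. Its partner KRT18 was at 30.5 and 44.3 CPM (0.54) and the mesenchymal marker VIM at 496 and 1250 CPM (1.33), both higher. The groups did not overlap for any of the 4. Of all tested genes, 57.7% differed by that test, and the groups did not overlap for 62.7%. The part of these markers in the results below was not tested.

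At an imprinted cluster, a control region carries DNA methylation on the copy from 1 parent, and genes nearby are expressed from the maternal or the paternal chromosome according to that mark. ZFP57 and ZNF445 bind a methylated sequence in such regions and recruit TRIM28, which keeps the mark through cell division. Several clusters also hold a long noncoding RNA, such as KCNQ1OT1, H19 or MEG3, transcribed from 1 parental copy only. Many imprinted genes act on fetal growth, with paternally expressed genes such as IGF2 often promoting it and maternally expressed genes such as H19, CDKN1C and GRB10 often limiting it. Counts per gene do not separate the 2 alleles, so nothing below measures the imprint itself.

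Promoter sequences are shown for the members that differed at least 2-fold, since imprint control regions are known to lie at a start of some of them, as at PLAGL1 and NAP1L5. RefSeq windows on GRCh38.p14, from 250 bases before to 50 after an annotated start, were found for 5 of these 8 genes. The start with the most CpG dinucleotides was taken for each, whether or not it lies in a control region. The windows are read 5′ to 3′ on the strand of the gene, and capitals mark TGCCGC, the core letters bound by ZFP57, or GCGGCA, the same motif on the opposite strand, and each match contains 1 CpG. They are H19 at chr11:2001217-2001516 on the minus strand, L3MBTL1 at chr20:43507447-43507746 on the plus strand, MKRN3 at chr15:23565424-23565723 on the plus strand, NAP1L5 at chr4:88697780-88698079 on the minus strand and PLAGL1 at chr6:144008210-144008509 on the minus strand.
H19: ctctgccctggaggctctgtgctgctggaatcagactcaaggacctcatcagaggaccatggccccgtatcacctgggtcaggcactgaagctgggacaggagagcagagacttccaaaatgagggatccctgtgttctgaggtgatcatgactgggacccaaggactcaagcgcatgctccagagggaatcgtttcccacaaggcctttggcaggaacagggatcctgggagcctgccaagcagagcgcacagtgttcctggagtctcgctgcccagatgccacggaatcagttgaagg
L3MBTL1: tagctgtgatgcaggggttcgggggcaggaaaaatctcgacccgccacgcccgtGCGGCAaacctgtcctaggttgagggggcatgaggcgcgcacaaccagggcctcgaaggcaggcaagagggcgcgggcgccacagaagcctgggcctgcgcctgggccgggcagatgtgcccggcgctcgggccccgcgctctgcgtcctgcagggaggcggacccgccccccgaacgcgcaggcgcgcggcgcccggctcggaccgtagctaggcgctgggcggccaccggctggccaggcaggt
MKRN3: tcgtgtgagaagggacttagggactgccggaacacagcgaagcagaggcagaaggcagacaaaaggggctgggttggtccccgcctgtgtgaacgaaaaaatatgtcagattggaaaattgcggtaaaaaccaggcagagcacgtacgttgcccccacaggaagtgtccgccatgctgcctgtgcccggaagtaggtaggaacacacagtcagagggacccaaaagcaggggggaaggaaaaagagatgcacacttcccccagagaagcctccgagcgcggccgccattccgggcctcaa
NAP1L5: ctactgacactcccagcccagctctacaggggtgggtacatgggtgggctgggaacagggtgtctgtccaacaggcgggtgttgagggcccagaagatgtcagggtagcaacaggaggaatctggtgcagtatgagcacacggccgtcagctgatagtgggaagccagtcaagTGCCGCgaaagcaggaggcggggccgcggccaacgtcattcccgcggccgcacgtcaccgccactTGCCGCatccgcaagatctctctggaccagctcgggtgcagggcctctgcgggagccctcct
PLAGL1: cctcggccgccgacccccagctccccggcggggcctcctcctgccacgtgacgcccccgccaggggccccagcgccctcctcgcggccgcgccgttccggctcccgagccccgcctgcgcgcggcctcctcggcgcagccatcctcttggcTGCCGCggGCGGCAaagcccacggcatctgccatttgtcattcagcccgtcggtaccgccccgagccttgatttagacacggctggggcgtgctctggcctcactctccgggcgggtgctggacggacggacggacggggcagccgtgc

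The PLAGL1 window held 39 CpG dinucleotides and 2 motifs, and that of L3MBTL1 held 35 and 1. NAP1L5 had 18 CpG dinucleotides and 2 motifs. The windows of MKRN3, with 15, and H19, with 6, held no TGCCGC on either strand. Over all members, 41 RefSeq promoters belonged to 17 of the 27 genes with a row, and 15 of the 41, or 36.6%, held the motif. The share was 16.7% of 35116 RefSeq promoters and 22.9% of the 18226 promoters of tested genes. It was 35.3% for promoters of members that were lower in the libraries labelled ΔTUT4/7, 28.6% for those that were higher, and 5 of 10 promoters of uncalled members held it. Those 5 belonged to MEST and DIRAS3 only. The shares count windows and not genes or separate sites. Some windows of MEST overlap and hold the same match, as do some of BLCAP, so the windows are not independent. A match to these letters is a description of the window and was not tied to methylation or binding in these cells.

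Across the 26 tested members, 6 were higher and 10 lower in the libraries labelled ΔTUT4/7 at an adjusted p (FDR) under 0.05 by edgeR's quasi-likelihood test with Benjamini-Hochberg adjustment over 23952 genes. The called share was 61.5%, beside 57.7% of all tested genes. By direction, 28.6% of all genes were called higher and 29.0% lower, so the members' counts stand near the background. At a difference of at least 2-fold, 2 members were higher and 6 lower, which is 30.8% of those tested. Of all genes 18.3% passed that limit, 5.90% higher and 12.4% lower. The 2 higher genes were MKRN3 and PHLDA2, and the 6 lower genes were GNAS-AS1, H19, SGCE, NAP1L5, L3MBTL1 and PLAGL1. The ranges of the groups did not overlap for 18 of the 26 members, or for 62.7% of all genes. The median log2 difference was -0.01 over the members, with 13 above and 13 below 0, and -0.02 over all genes. Less RNA per cell and fewer expressing cells cannot be told apart in these bulk libraries.

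**Figure D1:**
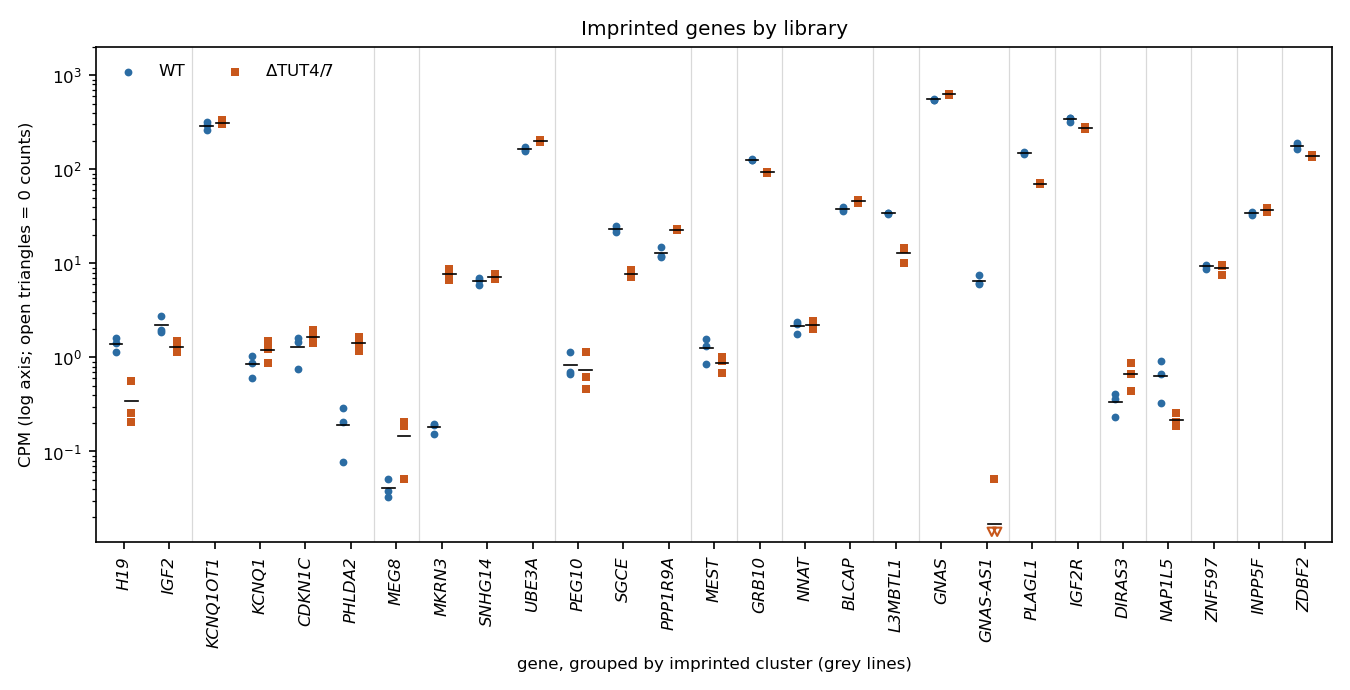
Level of each of the 27 imprinted genes with a row in each library, in CPM on a log axis, with WT libraries and libraries labelled ΔTUT4/7 in separate colours, genes grouped by imprinted cluster between grey lines and black bars at the group means. Open triangles mark libraries with no count. MKRN3 and GNAS-AS1 show the widest gaps between the groups. On the log axis the groups lie close together for GNAS, IGF2R and KCNQ1OT1, the genes with the highest CPM, although they did not overlap for GNAS and IGF2R.

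The members spanned a wide range of levels. Per kilobase of annotated exon, the highest WT levels were those of GNAS at 24.9 CPM per kb, PLAGL1 at 23.2, ZDBF2 at 16.4, IGF2R at 15.2, GRB10 at 12.99 and UBE3A at 8.61. At the low end, 9 of the tested members had a mean of fewer than 50 counts per library, so their folds rest on few reads. They include H19, IGF2, PHLDA2 and NAP1L5, which are called, and PEG10, MEST, KCNQ1, CDKN1C and DIRAS3, which are not.

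To set each member beside its chromosomal surroundings, the median log2 difference was taken over expressed genes within 5 Mb on either side that are on none of the imprinted lists, where expressed means a mean of at least 50 counts. These neighbours share libraries and chromosome with the member, and the difference between a member and its neighbours is given as a description. Medians ranged from -0.69 around NAP1L5 on 4q22 to 0.65 around GNAS on 20q13.3.

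**Figure D2:**
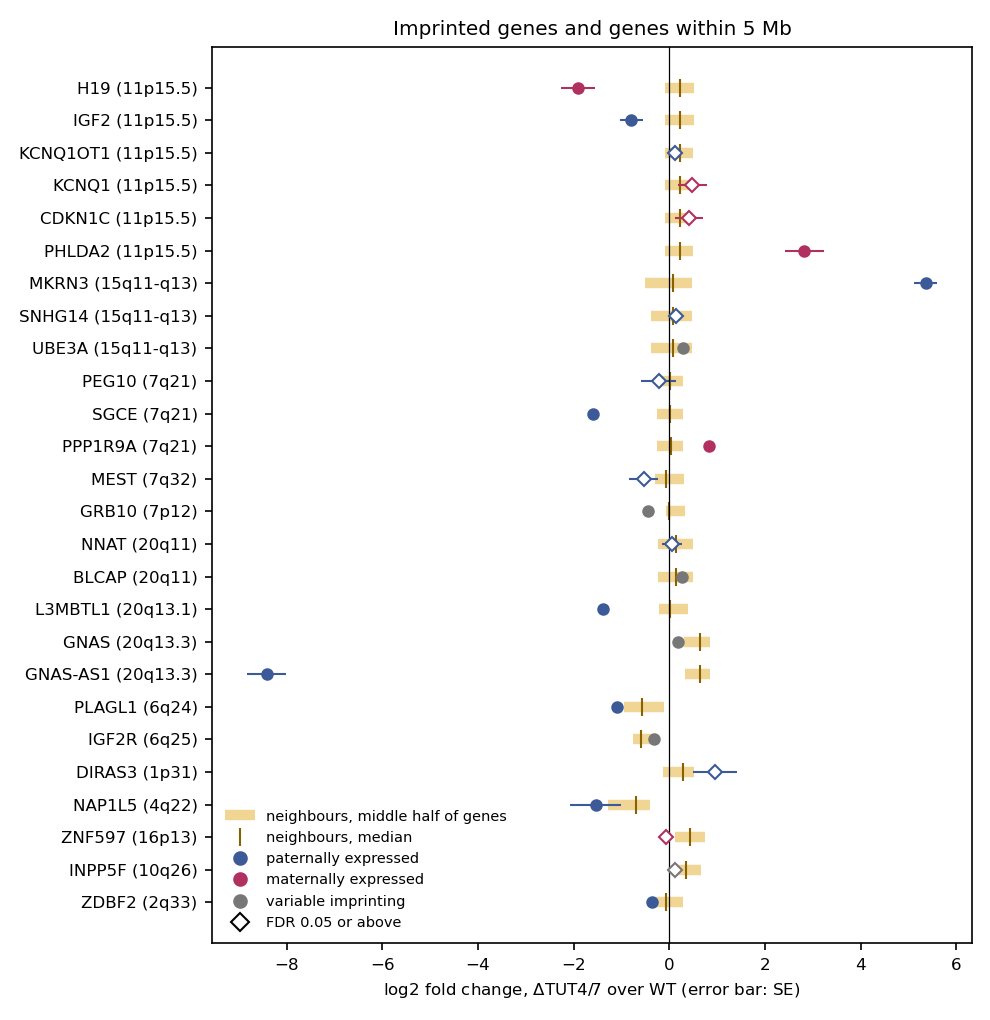
Log2 difference in level, libraries labelled ΔTUT4/7 minus WT, for each tested imprinted gene by cluster, with error bars of 1 SE, colours by expressed allele and diamonds for genes that did not pass the test, beside the median and the middle range of the expressed neighbours within 5 Mb. The value drawn for GNAS-AS1 is a fitted one and depends on how zero counts are handled. MKRN3 at 5.36 and PHLDA2 at 2.82 stand far above their neighbours, GNAS-AS1, H19 and SGCE stand below theirs, and PLAGL1 and IGF2R lie in regions whose neighbours were also lower.

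MKRN3 had the largest difference upward. It encodes a RING finger ubiquitin ligase, is expressed from the paternal copy of 15q11-q13 (ENSG00000179455, chr15:23565674-23630075, plus strand, hg38), and inherited loss of it causes early puberty. Counts were 3, 5 and 6 in WT and 253, 168 and 129 in the libraries labelled ΔTUT4/7, which correspond to 0.153, 0.192 and 0.196 CPM against 7.89, 8.66 and 6.59 CPM. It was near the detection limit in every WT library and well counted in every library labelled ΔTUT4/7. Mean levels were 0.180 ± 0.0239 and 7.71 ± 1.05 CPM, 42.8-fold higher, with a log2 difference of 5.36 ± 0.25 (SE) and an edgeR adjusted p of 8.93e-14. None of its 17 expressed neighbours moved as far in that direction, and their median was 0.07. A noncoding gene on the opposite strand of the same span, AC126407.1, named here after its values were seen, had counts of 1, 0 and 1 in WT and 28, 20 and 19 in the libraries labelled ΔTUT4/7. No source used here says whether reads were counted by strand, so reads of these overlapping genes cannot be told apart.

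The other genes with a row in 15q11-q13 differed little. SNHG14, the long paternal transcript that hosts clusters of small nucleolar RNAs and runs antisense into UBE3A, was at 5.91, 6.96 and 6.62 CPM in WT and 7.18, 7.68 and 6.79 CPM in the libraries labelled ΔTUT4/7. The groups overlapped, and the log2 difference of 0.15 ± 0.13 did not pass the test (adjusted p = 0.336, edgeR). UBE3A, the ubiquitin ligase lost in Angelman syndrome and imprinted in neurons only, was at 162, 173 and 157 CPM in WT and 197, 204 and 203 CPM in the libraries labelled ΔTUT4/7. Every library labelled ΔTUT4/7 lay above every WT library, and the difference was 1.23-fold (log2 0.30 ± 0.05, edgeR adjusted p = 1.09e-05). TUBGCP5, the nearest expressed protein-coding gene before the cluster, had a log2 difference of -0.01 ± 0.07 that did not pass the test. MKRN3 thus had a far larger log2 difference than its cluster partners with a row.

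On 11p15.5, 2 clusters lie side by side. The first holds H19, a maternal noncoding RNA and precursor of a microRNA, and IGF2, the paternal fetal growth factor. H19 (ENSG00000130600, chr11:1995176-2001470, minus strand) had counts of 32, 30 and 44 in WT and 18, 4 and 5 in the libraries labelled ΔTUT4/7. In CPM these are 1.63, 1.15 and 1.43 against 0.562, 0.206 and 0.255, and the groups did not overlap. It was 4.12-fold lower (log2 -1.91 ± 0.36, edgeR adjusted p = 0.000114), and the size rests in part on ΔTUT4/7 replicate 1, the highest of its group, without which the log2 difference was -2.57. IGF2 had counts of 37, 51 and 84 in WT and 37, 29 and 24 in the libraries labelled ΔTUT4/7, or 1.88, 1.96 and 2.74 CPM against 1.15, 1.49 and 1.23 CPM. It was 1.70-fold lower (log2 -0.79 ± 0.24, edgeR adjusted p = 0.00776), but leaving out WT replicate 3, its highest library, took the call away (adjusted p = 0.0623). Both members of this reciprocal pair were thus lower, although they are expressed from opposite alleles, while their 68 neighbours had a median of 0.21.

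In the second cluster, KCNQ1OT1 is the paternal antisense RNA that silences its neighbours on the same chromosome. Its annotation is long, and per kilobase of exon it was at 3.15 CPM in WT, below UBE3A at 8.61. In CPM it was at 319, 293 and 263 in WT and 310, 301 and 333 in the libraries labelled ΔTUT4/7, and the groups overlapped (log2 0.11 ± 0.06, edgeR adjusted p = 0.164). The difference passed the test only when WT replicate 1, the highest WT library, was left out (0.17, adjusted p = 0.0172). Its 3 maternally expressed targets on the list were all near 1 CPM or below in WT. PHLDA2 (ENSG00000181649, chr11:2928273-2929420, minus strand), which limits placental growth, had counts of 4, 2 and 9 in WT and 45, 32 and 23 in the libraries labelled ΔTUT4/7. These are 0.204, 0.0769 and 0.293 CPM against 1.40, 1.65 and 1.17 CPM, with no overlap. It was 7.37-fold higher (log2 2.82 ± 0.41, edgeR adjusted p = 3.89e-06), and none of 69 neighbours moved as far. The cell cycle inhibitor CDKN1C was at 1.48, 1.62 and 0.750 CPM in WT and 1.93, 1.60 and 1.43 CPM in the libraries labelled ΔTUT4/7 (log2 0.41 ± 0.28, edgeR adjusted p = 0.225). The potassium channel gene KCNQ1 was at 0.611, 1.04 and 0.880 against 1.22, 1.49 and 0.868 CPM (log2 0.48 ± 0.31, edgeR adjusted p = 0.190). For neither gene did the test separate the groups, which overlapped. The nearest expressed protein-coding genes outside both clusters went in opposite directions, MRPL23 by 0.22 ± 0.07 and CARS1 by -0.73 ± 0.06 on the log2 scale.

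Of the 14q32 cluster only MEG8, a maternal noncoding RNA, had a row. Its counts were 1, 1 and 1 in WT and 6, 1 and 4 in the libraries labelled ΔTUT4/7. The ratio of the summed counts, 11 against 3 and scaled for library size, was 3.94 with an exact 95% interval of 1.04 to 21.99, which covers counting error only.

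On 7q21, 3 members within 1 Mb behaved differently from each other. SGCE, the paternal sarcoglycan epsilon gene mutated in myoclonus dystonia (ENSG00000127990, chr7:94524204-94656572, minus strand), starts next to PEG10 and is transcribed away from it. It was at 23.4, 24.9 and 21.6 CPM in WT and 8.46, 7.27 and 7.15 CPM in the libraries labelled ΔTUT4/7, with a wide gap between the groups. The difference was 3.06-fold downward (log2 -1.60 ± 0.10, edgeR adjusted p = 1.15e-11), and 2 of 65 neighbours moved as far, around a median of 0.01. PEG10, a paternal gene derived from a retrotransposon (chr7:94656325-94669695, plus strand), had only 13, 18 and 35 counts in WT and 20, 22 and 9 in the libraries labelled ΔTUT4/7. These overlapping groups gave a log2 difference of -0.22 ± 0.37 (edgeR adjusted p = 0.639). PPP1R9A, a maternal gene for a neuronal actin-binding protein, was at 14.8, 11.96 and 11.8 CPM in WT and 22.7, 23.1 and 22.8 CPM in the libraries labelled ΔTUT4/7. It was 1.77-fold higher without overlap (log2 0.84 ± 0.09, edgeR adjusted p = 1.08e-07), and 3 of 79 neighbours moved as far. At the edges of the cluster, BET1 had a log2 difference of -0.03 ± 0.08 and PON2 of 0.01 ± 0.07, neither called. SGCE and PPP1R9A, classed as paternal and maternal in 1 cluster, therefore went in opposite directions between flanking genes that did not pass the test. CASD1, which overlaps SGCE on the opposite strand, was lower by 0.50 on the log2 scale.

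The 2 other chromosome 7 clusters differed less. GRB10, an adaptor protein that restrains insulin and IGF receptor signalling and whose expressed allele depends on tissue, was at 127 ± 0.111 CPM in WT and 92.8 ± 1.80 CPM in the libraries labelled ΔTUT4/7. Every library labelled ΔTUT4/7 lay below every WT library, and the difference was 1.37-fold downward (log2 -0.45 ± 0.05, edgeR adjusted p = 1.95e-08), with a median of -0.01 for its 16 neighbours. MEST, a paternal gene of the hydrolase family on 7q32, was at 1.32, 0.846 and 1.57 CPM against 0.686, 0.928 and 1.02 CPM. These groups overlapped, and the log2 difference of -0.54 ± 0.31 did not pass the test (adjusted p = 0.145, edgeR). It passed only without WT replicate 2, the lowest WT library (adjusted p = 0.0486).

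GNAS-AS1, the paternal antisense RNA of the GNAS locus on 20q13.3 (ENSG00000235590, chr20:58818919-58850903, minus strand), had the largest difference downward. Counts were 122, 195 and 184 in WT, and 0, 0 and 1 in the libraries labelled ΔTUT4/7. The RNA was thus counted in every WT library and all but absent from the counts of the other group. WT held 501 counts in all and the libraries labelled ΔTUT4/7 held 1. The ratio of WT to the other group was 466 after scaling, with an exact 95% interval of 83.3 to 18453 that covers counting error only, and the edgeR adjusted p was 2.37e-13. AL132655.1, a noncoding gene overlapping it on the same strand and named after its values were seen, had 56, 65 and 72 counts in WT and 1, 0 and 0 in the libraries labelled ΔTUT4/7. None of the 66 expressed neighbours moved as far, and their median was 0.64.

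GNAS itself encodes the stimulatory G protein alpha subunit from most of its transcripts and has further maternal and paternal transcripts from upstream starts, which the gene count adds together. It was at 566, 546 and 547 CPM in WT and 631, 623 and 626 CPM in the libraries labelled ΔTUT4/7. The groups did not overlap and the difference was 1.13-fold upward (log2 0.18 ± 0.04, edgeR adjusted p = 0.000717). Scaling to library size alone took this call away (adjusted p = 0.205), and the neighbours' median of 0.65 was higher than the difference of GNAS, with 55 of 69 neighbours called higher. AL121917.1, a noncoding gene antisense to GNAS that was also named after its values were seen, had 44, 62 and 57 counts in WT and 15, 4 and 9 in the libraries labelled ΔTUT4/7. The nearest outside genes were both higher, NPEPL1 by 0.74 ± 0.16 and NELFCD by 0.78 ± 0.05 on the log2 scale.

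**Figure D3:**
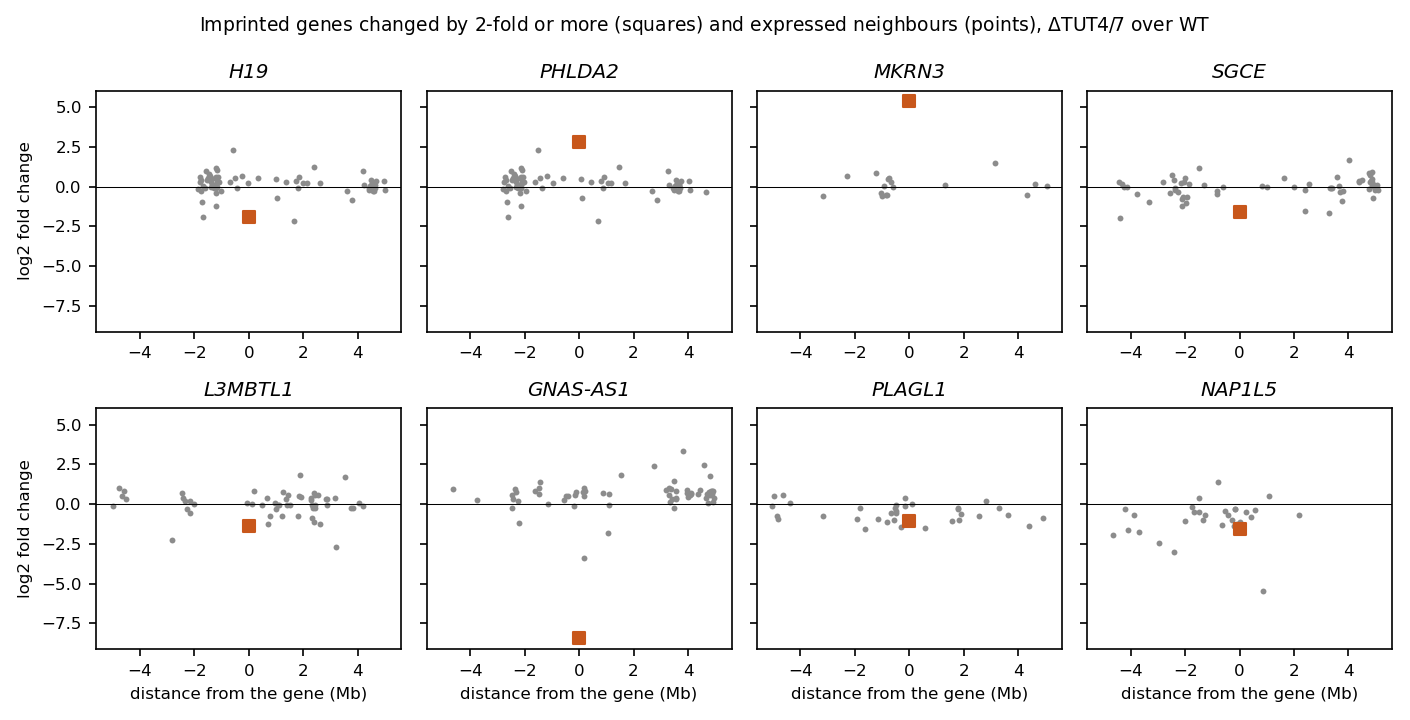
Log2 difference, libraries labelled ΔTUT4/7 minus WT, of expressed neighbours against distance from the member in Mb, for the 8 members with a difference of at least 2-fold, with the member itself marked at 0. MKRN3, PHLDA2 and GNAS-AS1 lie beyond all of their neighbours, whereas PLAGL1 and NAP1L5 lie among neighbours that were mostly lower.

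Elsewhere on chromosome 20, L3MBTL1 encodes a chromatin-compacting protein that binds methylated histones and is expressed from the paternal copy (ENSG00000185513, chr20:43489442-43550954, plus strand). It was at 33.3, 34.5 and 34.6 CPM in WT and 14.3, 10.1 and 14.5 CPM in the libraries labelled ΔTUT4/7, so the WT libraries were tightly grouped and all above the others. The difference was 2.64-fold downward (log2 -1.39 ± 0.10, edgeR adjusted p = 3.14e-09). Only 2 of 57 neighbours moved as far, and the adjacent genes SRSF6 and IFT52 had log2 differences of 0.09 ± 0.05 and 0.02 ± 0.07 that did not pass the test. NNAT, a paternal neuronal proteolipid gene that sits inside an intron of BLCAP, was at 2.39, 2.27 and 1.79 CPM against 2.22, 2.01 and 2.45 CPM, with overlapping groups (log2 0.06 ± 0.21, edgeR adjusted p = 0.827). Its host BLCAP, imprinted in brain, was at 36.3, 39.6 and 37.7 CPM in WT and 47.6, 44.3 and 45.2 CPM in the libraries labelled ΔTUT4/7. That is 1.21-fold higher without overlap (log2 0.27 ± 0.06, edgeR adjusted p = 0.000716), beside a median of 0.13 for 88 neighbours. The adjacent genes SRC and CTNNBL1 had log2 differences of 0.58 ± 0.07 and 0.64 ± 0.07.

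On chromosome 6, PLAGL1 is a paternal zinc finger factor with growth-suppressing activity whose overexpression causes transient neonatal diabetes (ENSG00000118495, chr6:143940300-144064599, minus strand). Levels were 147, 152 and 148 CPM in WT and 70.7, 69.3 and 70.7 CPM in the libraries labelled ΔTUT4/7, with little spread in either group. It was 2.12-fold lower (log2 -1.08 ± 0.05, edgeR adjusted p = 2.44e-14). Its region was lower as well, with a median of -0.57 over 34 neighbours, of which 23 were called lower and 5 moved at least as far. LTV1 and SF3B5, the nearest genes on each side, had log2 differences of 0.36 ± 0.06 and -0.01 ± 0.08. HYMAI, the paternal noncoding RNA that overlaps PLAGL1, was lower by 0.85 on the log2 scale. IGF2R, the receptor that clears IGF2 and is imprinted in only some people, was at 355, 322 and 352 CPM against 283, 266 and 280 CPM. It was 1.24-fold lower without overlap (log2 -0.31 ± 0.05, edgeR adjusted p = 7.23e-06), which is less than the median of -0.60 of its 36 neighbours.

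Of the members that lie alone in their region, 2 more were lower. ZDBF2, a paternal zinc finger gene on 2q33, was at 180, 191 and 165 CPM in WT and 134, 141 and 142 CPM in the libraries labelled ΔTUT4/7 (log2 -0.36 ± 0.05, edgeR adjusted p = 3.61e-06), with no overlap and a neighbour median of -0.08. NAP1L5, a paternal retrogene of the nucleosome assembly family inside an intron of HERC3 (chr4:88695913-88697829, minus strand), had 13, 24 and 10 counts in WT and 6, 5 and 4 in the libraries labelled ΔTUT4/7. The groups did not overlap in CPM, at 0.662, 0.923 and 0.326 against 0.187, 0.258 and 0.204, but the spread within WT was wide. It was 2.94-fold lower (log2 -1.54 ± 0.53, edgeR adjusted p = 0.0178), and the call was lost with DESeq2 (adjusted p = 0.0547), without WT replicate 2 (0.143) and without ΔTUT4/7 replicate 1 (0.0649). Its 30 neighbours had a median of -0.69, with 25 called lower. Its host HERC3, which is on the list of further imprinted genes below, was lower by 0.67 on the log2 scale.

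DIRAS3, a paternal RAS-related tumour suppressor on 1p31, was at 0.407, 0.231 and 0.359 CPM in WT and 0.437, 0.876 and 0.664 CPM in the libraries labelled ΔTUT4/7. Although the groups did not overlap, the log2 difference of 0.95 ± 0.46 did not pass the test (adjusted p = 0.0859, edgeR). ZNF597, a maternal zinc finger gene on 16p13, was at 9.27 ± 0.405 and 8.84 ± 1.10 CPM (log2 -0.08 ± 0.12, edgeR adjusted p = 0.595), in a region whose 160 neighbours had a median of 0.43. INPP5F, an inositol phosphatase gene on 10q26 with a paternal transcript in brain, was at 34.2 ± 1.14 and 37.0 ± 1.45 CPM (log2 0.11 ± 0.06, edgeR adjusted p = 0.136), below the median of 0.36 of its 54 neighbours.

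Grouped by the allele usually expressed, 14 tested members were classed as paternal, 6 as maternal and 6 as variable, imprinted only in some tissues, transcripts or people. The classes come from general knowledge and were not measured in these cells. Tissue limits among the genes classed as paternal or maternal, such as PPP1R9A and KCNQ1, were not considered. Of the paternal genes, 1 was higher (MKRN3), 7 were lower (IGF2, SGCE, L3MBTL1, GNAS-AS1, PLAGL1, NAP1L5 and ZDBF2) and 6 did not pass the test, with a median log2 difference of -0.45, in which GNAS-AS1 counts only by its rank. Of the maternal genes, 2 were higher (PHLDA2 and PPP1R9A), 1 was lower (H19) and 3 did not pass, with a median of 0.45. The variable genes held 3 higher (UBE3A, BLCAP and GNAS), 2 lower (GRB10 and IGF2R) and 1 that did not pass, with a median of 0.15. Over all tested genes, 28.6% were called higher and 29.0% lower. After the neighbour median of each gene was taken off, the medians were -0.38 for the paternal genes, of which 11 lay below their neighbours, and 0.23 for the maternal genes, of which 4 lay above theirs. The difference between the classes was not tested, and 8 of the 22 paternal genes listed had no row.

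The genes that set, keep and read imprints were taken from a second list of 28, of which 21 had a row and 20 were tested. Of these, 11 were higher and 6 lower in the libraries labelled ΔTUT4/7, or 85.0% called beside 57.7% of all genes, with a median log2 difference of 0.25. Of the 20, 1 passed 2-fold, beside 18.3% of all genes. This list and the 2 below were chosen with earlier results of these data known, so their called shares are descriptions only. EZH2, the Polycomb methyltransferase, was at 56.5, 55.7 and 59.2 CPM in WT and 113, 117 and 115 CPM in the libraries labelled ΔTUT4/7 (log2 1.01 ± 0.05). TRIM28, the corepressor recruited to imprinted control regions, rose similarly, from 212 ± 13.5 to 423 ± 18.9 CPM (1.00 ± 0.05). CTCF, the insulator protein that binds the unmethylated H19 control region, was higher by 0.65 ± 0.05. The decreases were led by TET2, a methylcytosine dioxygenase, with -0.98 ± 0.05, and by ARID4B and SMCHD1, both chromatin silencing factors, each with -0.58. The maintenance methyltransferase DNMT1 had a log2 difference of -0.09 that did not pass the test. ZFP57, the factor whose motif is shown above, had no row, as did DNMT3L, DPPA3, KHDC3L, NLRP5, NLRP7 and PADI6.

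A list of 60 further imprinted genes had 33 with a row and 27 tested, of which 11 were higher, 8 lower and 8 not called, or 70.4% called beside 57.7% of all genes, with a median of -0.02. At 2-fold, 1 was higher and 2 were lower, which is 11.1% beside 18.3% of all genes. ZNF331, a zinc finger gene on chromosome 19, was at 3.82, 4.08 and 4.37 CPM in WT and 34.6, 28.9 and 32.5 CPM in the libraries labelled ΔTUT4/7 (log2 2.96 ± 0.10). LPAR6, a lysophosphatidic acid receptor that lies within the RB1 gene, was at 15.7, 16.998 and 14.7 against 2.65, 2.73 and 2.25 CPM (-2.63 ± 0.13). The other named genes of this list differed less, with TSSC4 of the 11p15.5 cluster higher by 0.98, ERAP2 higher by 0.72, and HYMAI and HERC3 lower as given above.

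IGF2, IGF2R, GRB10 and H19 belong to or act on the insulin-like growth factor axis, and 20 other genes of that axis were tested from a list of 22. Of these, 7 were higher and 12 lower, or 95.0% called, 5 of them at least 2-fold higher and 6 at least 2-fold lower, with a median of -0.63. Over all tested genes, 57.7% were called and 18.3% passed 2-fold, 5.90% higher and 12.4% lower. Because the list was chosen with earlier results known, its share beside that background is a description and was not tested. INSR, the insulin receptor, was at 133, 122 and 129 CPM in WT and 57.3, 56.3 and 52.1 CPM in the libraries labelled ΔTUT4/7 (log2 -1.21 ± 0.05). IGFBP5, a secreted IGF-binding protein, was lower by more (-1.71 ± 0.08), and PCSK6, a proprotein convertase, had -1.14 ± 0.05. In the other direction, IGFBP2 was at 7.03, 5.50 and 5.77 CPM against 15.4, 16.9 and 14.1 CPM (1.35 ± 0.12). The receptor adaptor IRS2 was higher by 1.08 ± 0.10, and IRS1 by only 0.32 ± 0.11. IGF1 itself had no row. All of these genes share the 6 libraries with the members.

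**Figure D4:**
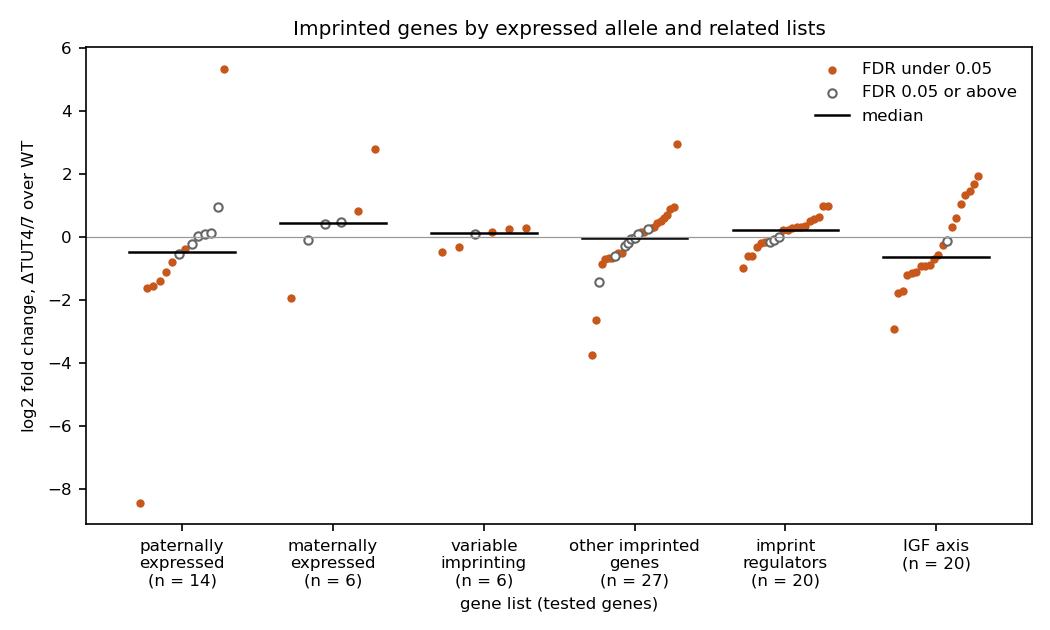
Log2 difference, libraries labelled ΔTUT4/7 minus WT, of each tested imprinted gene by expressed allele and of each tested gene in the 3 lists set beside them. Filled points passed the test at an adjusted p under 0.05, open points did not, and lines mark the medians, which are -0.45 for paternal, 0.45 for maternal and 0.15 for variable members, -0.02 for the other imprinted genes, 0.25 for the imprint regulators and -0.63 for the IGF axis. The lowest paternal point is the fitted value of GNAS-AS1.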

How the data were processed

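Paired-end reads had been mapped by the authors to hg38 (STAR 2.7.3a) and Ensembl genes quantified with the expectation-maximisation model of Partek 10.0.22, tools named in the submitters' processing notes. The deposited table holds the resulting estimated counts, which share reads between overlapping or similar genes, and use of read strand is not given in the sources used here. A second deposited table holds only the authors' own comparison (p-values, ratios, fold changes and group means) and was not used. Gene coordinates are those of the table with 1 base taken off the end, and 21 of 27 members then had the same start and end as in GENCODE.

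Estimated counts were rounded, genes with a largest count above 12 were kept, and groups were compared over all 23952 genes with edgeR 4.0.16 under R 4.3.3 (TMM factors, robust glmQLFit, glmQLFTest, no term but group), adjusting p-values by Benjamini-Hochberg. SE is the log2 difference divided by the square root of F. The test was tested on simulated data. Replicate libraries of a group differed by more than sampling noise, so each counted once. The labels call the replicates biological but name no separate cultures beyond that. Replicate numbers did not pair the samples (r between same-numbered deviations 0.05, -0.01 and -0.02). Total counts per library are given in the report, and intervals cover counting error only. Values of overlapping genes and of close paralogs are uncertain.

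The members, the 3 lists beside them and the neighbours rule were chosen with earlier results of these data known. Genes named in the text are all 36 members, TUT4 and TUT7, the nearest expressed non-imprinted protein-coding gene on each side of a cluster, and, in each list, the 3 called genes with the largest increase and the 3 with the largest decrease, given a mean of 50 counts or more. 1 of the flanking genes is not reported here. Others are named as chosen after their values were seen, or for their role in setting imprints. Alternatives were scaling by library size alone, RLE and upper quartile, other count filters, a replicate block, DESeq2 1.42.0, limma 3.58.1 (voom, and log2(CPM + 1)), and each library left out in turn.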

Additional observations from a re-analysis of the deposited data

How the results depend on the processing

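No called member changed direction under the alternatives run. Counts of members called higher stayed between 5 and 7, and of those called lower between 7 and 10. With a mean count of at least 50, 17 members were tested, 5 higher and 7 lower, and 1 rather than 2 was at least 2-fold higher. Counts at 2-fold lower lay between 4 and 6, with 4 for limma on log2(CPM + 1), where the added 1 shrinks the differences of low genes (MKRN3 2.88, PHLDA2 1.02, H19 -0.85, NAP1L5 -0.41). The median log2 difference of the members, -0.01, moved to -0.12 with library size alone and -0.11 with upper-quartile scaling, as the median of all genes moved to -0.13 and -0.12. With 1 library left out at a time it ranged from -0.02 to 0.05. The replicate block, whose numbers do not pair the samples, gave 6 higher and 10 lower and changed no member's call. Calls that changed were those of IGF2, KCNQ1OT1, MEST, GNAS and NAP1L5. Upper-quartile scaling also took away the call of GNAS (adjusted p = 0.112, edgeR). The cause of these changes was not tested. With the variable genes moved to the allele usually named for them, 5 of 11 maternal genes were higher and 3 lower, while the paternal counts stayed at 1 higher and 7 lower of 15. The reverse move, of maternal or paternal genes to the variable class, was not run. Depth limits the 9 tested members under 50 counts.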
